A study of Drosophila melanogaster and Drosophila melanogaster
Drosophila virilis and Drosophila virilis with 9 samples.

Results

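The cells described here are single *Drosophila melanogaster* cells that carried at least 2 unique molecular identifiers (UMIs, each standing for 1 captured mRNA) of *gcm*, the gene of the transcription factor Glial cells missing. They were taken from barcodes with at least 5000 UMIs on *D. melanogaster* genes and at least 90% of all their UMIs on them. There were 108 such gcm cells among 3880 cells in 7 libraries. They were compared with the 3672 cells that had 0 *gcm* UMIs, and with the 999 of those that had at least 1 UMI of both *sna* and *twi*, the transcription factor genes that mark the ventral furrow, from here on the mesoderm-gate cells. The remaining 100 cells had exactly 1 *gcm* UMI and entered neither side.

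Embryos were hand-picked at stage 6, the stage at which the ventral cells fold inwards, and were dissociated for Drop-seq, which pairs each cell with a barcoded bead in a droplet and reads the 3′ ends of its polyadenylated RNA. Replicates 1 and 2 were mixed-species libraries, in which *D. melanogaster* and *D. virilis* embryos were processed together, and replicates 3 to 7 were single-species libraries of *D. melanogaster* alone. All *D. melanogaster* embryos carried the transgenes P{st.2::Gal4} and P{vnd::dsRED} in a y1 w1118 background. Eggs were collected over 1 h and then kept at room temperature for 2 h 30 min, or 3 h 30 min for *D. virilis*. All cells passed a 20 µm strainer and were fixed in 80% methanol. The series has no mutant and no treatment, and the comparisons of cell sets are between cells of the same libraries. Each library pools embryos, and the labels do not say whether the libraries came from separate collections of embryos. So p-values of the cell-set comparisons measure only how the difference between sets varied over these libraries. The p-value for the share of gcm cells measures only the spread between these libraries.

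In the fly embryo, blood cells (hemocytes) arise from the head mesoderm, a patch of *sna*- and *twi*-expressing cells at the anterior end. The GATA factor Serpent (*srp*) is needed for all embryonic blood cells, and Gcm, with its relative Gcm2, acts downstream of it in the macrophage-like plasmatocytes. Later in development Gcm also switches ectodermal cells from a neuronal to a glial fate, which gave the gene its name. In the BDGP6.54 annotation *gcm* lies on chromosome arm 2L at 9579498 to 9581745 on the minus strand, and *gcm2* lies close by at 9608562 to 9612706 on the plus strand.

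The number of gcm cells per library ranged from 8 to 29 with a median of 12. Their share of all cells was lowest at 1.65% in replicate 7, had a median of 2.52% and was highest at 3.91% in replicate 6, with a mean of 2.79% ± 0.842 (SD, n = 7). The exact 95% binomial interval was 0.715% to 3.22% in replicate 7 and 1.89% to 7.07% in replicate 6, so the intervals of the lowest and the highest library overlapped. Those intervals cover counting error only. In mixed-species libraries the mean share was 2.89% ± 0.945 (SD, n = 2), and in single-species libraries it was 2.75% ± 0.913 (SD, n = 5). The difference of 0.141 percentage points was within the spread of the libraries (two-sided exact permutation test over 21 arrangements, p = 0.857, where the smallest p possible is 0.0476).

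Within the gcm cells the *gcm* count varied widely. Of the 108 cells, 24 had exactly 2 *gcm* UMIs, 12 had exactly 3, 32 had 5 to 9 and 34 had 10 or more, and the median was 6. The highest count was 100, in a cell of replicate 3 with 153432 UMIs in all, and that cell alone held 22.5% of the *gcm* UMIs of that library's gcm cells. Summed over the gcm cells of a library, *gcm* stood at 130 CPM (counts scaled to a common total per library and cell set) in the lowest library, 214 CPM at the median and 363 CPM in the highest. Together the gcm cells held 91.4% of the 1157 *gcm* UMIs found in all 3880 cells. Because the gcm cells were chosen by their *gcm* UMIs, these values are a description.

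**Figure D1:**
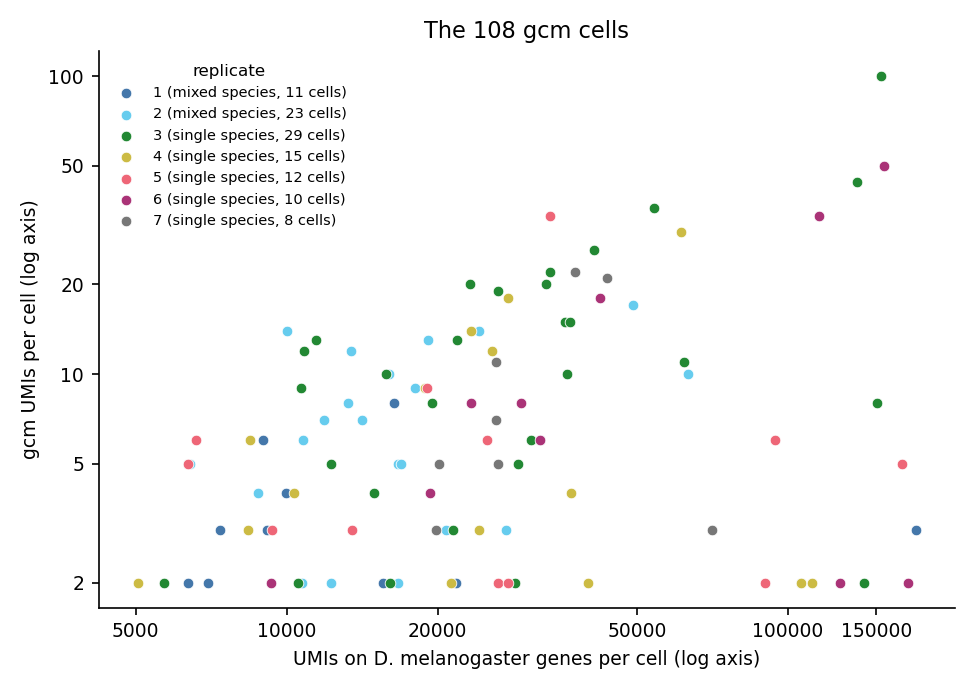
Each point is 1 of the 108 gcm cells, with its total UMIs on *D. melanogaster* genes on the horizontal axis and its *gcm* UMIs on the vertical axis (both log axes), coloured by library. Cells with 2 *gcm* UMIs lie along the floor at every depth, and the cell with 100 *gcm* UMIs belongs to replicate 3.

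The background from free RNA was low for *gcm* in the mixed-species libraries, the only ones in which it could be measured. In the *D. virilis* cells of the mixed-species libraries, which cannot make *D. melanogaster* transcripts, at least 1 *gcm* UMI was present in 1 of 642 cells of replicate 1 (0.156%) and in 0 of 567 cells of replicate 2, which allows a share of up to 0.529%. No *D. virilis* cell of either library had 2, which allows up to 0.467% and 0.529%. The median depth of these *D. virilis* cells was 7812.5 and 11409 UMIs. Barcodes holding both species made up 2.29% and 0.814% of those with at least 5000 UMIs. The single-species libraries have no *D. virilis* cells, so their background was not measured. Exactly 1 *gcm* UMI was found in 5 of 496 and 9 of 647 *D. melanogaster* cells of the mixed-species libraries. In the single-species libraries it was found in 15 of 846, 23 of 673, 19 of 477, 13 of 256 and 16 of 485. The part of free RNA in these cells was not tested.

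The gcm cells were deep. Their median depth per library ran from 9983 to 37114 UMIs, against 10377 to 26289 for the mesoderm-gate cells and 8220.5 to 16981 for all cells without *gcm*, and in 5 of 7 libraries it was above that of the mesoderm-gate cells. Of the 108 cells, 21 were among the deepest 5% of their library and 13 had over 100000 UMIs. Among those 13, 8 had only 2 to 5 *gcm* UMIs. Some of these barcodes may hold more than 1 cell, which was not tested. Levels below are summed over the cells of a library, so the deepest barcodes weigh most in them. In replicate 1, where the median was 9983 UMIs, a gcm cell with 3 *gcm* UMIs had 179868 UMIs. Mitochondrial transcripts took 11.9% ± 1.42 of UMIs in gcm cells, 12.2% ± 1.03 in mesoderm-gate cells and 13.3% ± 1.54 in all cells without *gcm* (mean ± SD, n = 7). No barcode was shared by any pair of libraries.

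The gcm cells were mesodermal by *sna* and *twi*. Both genes were detected in 95 of the 108 cells and neither in 4. The share with both was 89.4% ± 8.74 of the gcm cells of a library and 28.2% ± 5.23 of the cells without *gcm* (mean ± SD, n = 7). The lowest library had 75.0% among gcm cells and the highest 33.5% among cells without *gcm*, so the 7 libraries did not overlap. In *D. virilis* cells, *sna* was found in 2.65% and 1.59% and *twi* in 2.80% and 2.12%.

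The markers proposed for these cells besides *gcm* were *ham*, *srp*, *CrebA* and *fok*. *ham* encodes the zinc finger protein Hamlet, CrebA is a bZIP factor that switches on secretory pathway genes in other fly tissues, and *fok* stands for fledgling of Klp38B. Of the 108 cells, 88 had *ham*, 97 had *srp*, 93 had *CrebA* and 57 had *fok*. All 4 markers were present in 49 cells and 3 of them in a further 37. The 4 cells that had none all had 2 to 4 *gcm* UMIs. Among the 999 mesoderm-gate cells, 4 had all of these markers, 26 had 3 and 611 had none.

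The contrast was also present at equal depth. When every cell was thinned to 5000 UMIs, *ham* was present in 51.7% ± 16.2 of gcm cells, 2.10% ± 1.41 of mesoderm-gate cells and 1.46% ± 0.585 of all cells without *gcm* (mean ± SD over 7 libraries). Without thinning, *ham* was present in 80.1% ± 12.6 of gcm cells and 4.99% ± 3.24 of mesoderm-gate cells. Thinned *CrebA* was present in 63.9% ± 17.5 of gcm cells and 4.63% ± 2.51 of mesoderm-gate cells, and thinned *srp* in 69.0% ± 17.4 and 13.4% ± 1.98. In *D. virilis* cells, the share with *ham* was 0.156% in replicate 1 and 0 of 567 in replicate 2. It was 0.935% and 1.06% for *CrebA* and 1.09% and 1.41% for *srp*.

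The levels of these markers were high in the gcm cells of every library, though unequal between libraries. The *ham* level was 38.4 CPM in the lowest library, 179 CPM at the median and 226 CPM in the highest, against 1.18, 2.08 and 7.21 CPM in the mesoderm-gate cells. *CrebA* stood at 109, 344 and 426 CPM against 6.21, 11.3 and 20.8 CPM, and *fok* at 25.0, 81.3 and 107 CPM against 5.56, 7.07 and 8.24 CPM. For *ham*, *CrebA* and *fok* the lowest library of gcm cells was above the highest library of mesoderm-gate cells by a wide margin.

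*srp* was closer. Its level in gcm cells was 63.4 CPM in the lowest library, 262 CPM at the median and 484 CPM in the highest, against 30.4, 48.5 and 63.1 CPM in mesoderm-gate cells, so the groups touched without overlapping. The low value belongs to replicate 5, which also had the lowest level of *ham*, *CrebA* and *zfh1*. Its gcm cells included barcodes of 168705, 94212 and 90096 UMIs, which held 0, 5 and 4 *srp* UMIs and 0, 1 and 1 *ham* UMIs. The part of these deep barcodes in the low levels was not tested. Against all cells without *gcm*, whose *srp* level ran from 35.8 to 74.2 CPM, the groups overlapped. The log2 change from mesoderm-gate to gcm cells was 5.18 (SE 0.192) for *ham*, 4.45 (SE 0.262) for *CrebA*, 3.32 (SE 0.247) for *fok* and 2.31 (SE 0.244) for *srp*. Since these genes were proposed as markers from the same data, the changes are given as a description without a test.

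**Figure D2:**
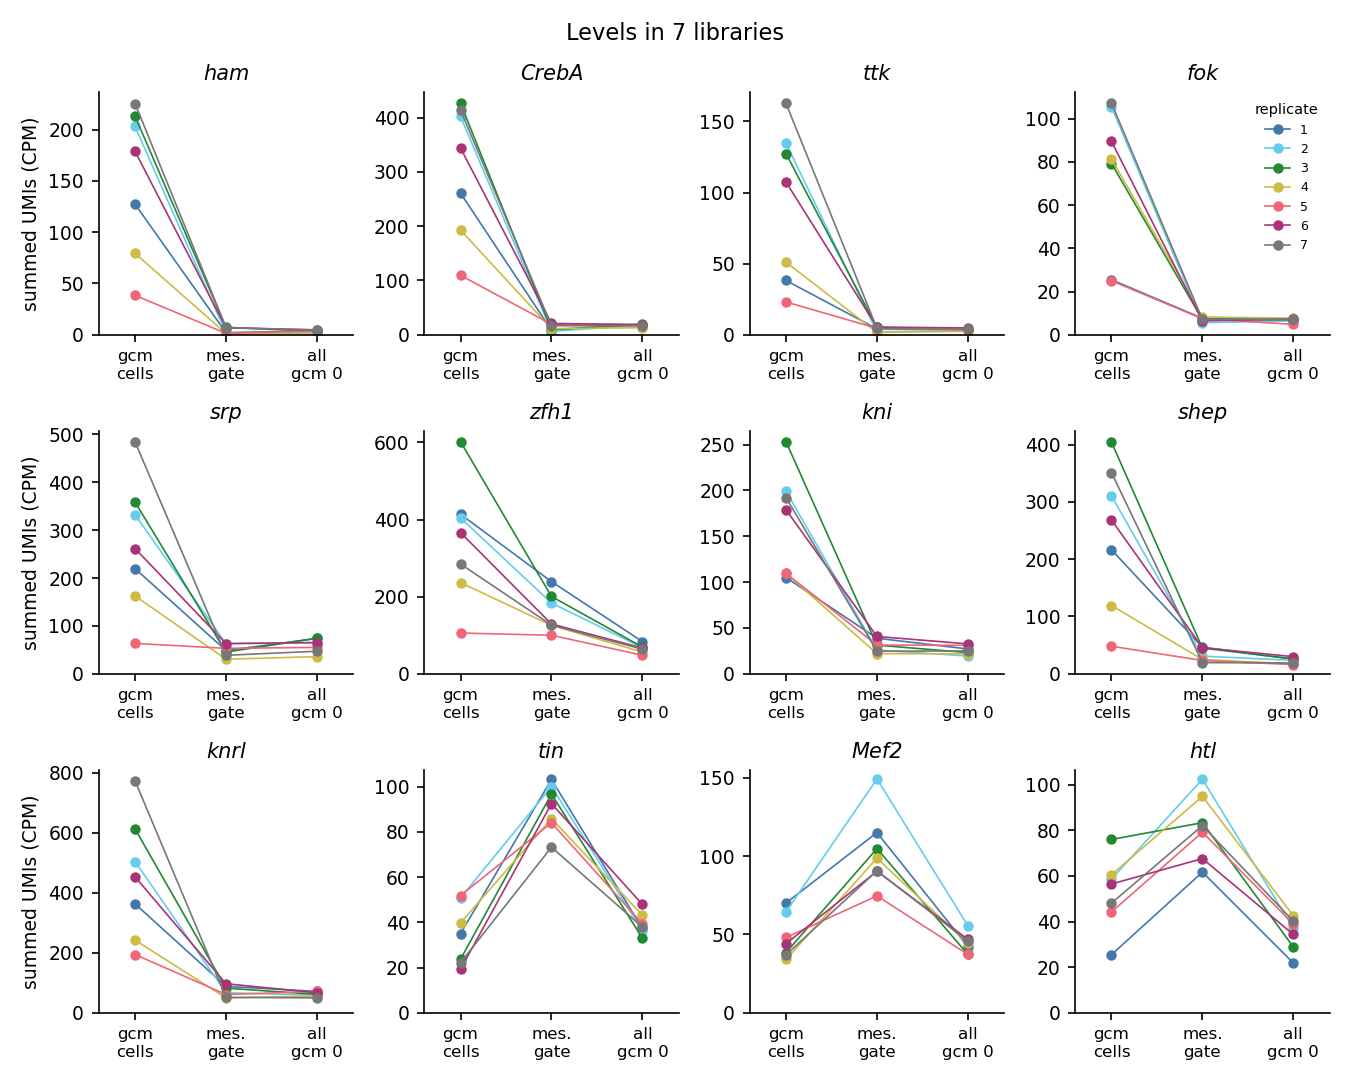
Each panel gives the level of 1 gene (CPM, linear axis from 0) in the gcm cells, the mesoderm-gate cells and all cells without *gcm*, with 1 line per library. *ham*, *CrebA*, *ttk* and *fok* are near 0 outside the gcm cells, while *tin* and *Mef2* are highest in the mesoderm-gate cells of every library.

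Summed UMIs per library were next compared between gcm cells and mesoderm-gate cells across 6211 genes with edgeR's quasi-likelihood test. Past a Benjamini-Hochberg adjusted p of 0.05 there were 116 genes (1.87% of those tested), of which 79 were higher in gcm cells (1.27%) and 37 lower (0.596%). The balance of rises and falls depended on the processing, with 59 higher and 89 lower after thinning every cell to 5000 UMIs, 115 and 212 without a filter on low counts, and 131 and 204 when gcm cells needed at least 10 *gcm* UMIs. By size, 30 genes were more than 4-fold higher and 1 was more than 4-fold lower (0.499% of those tested in all). In 79 of the 116 the direction was the same in every library. The libraries of both groups did not overlap for 53 genes (0.853% of those tested), 33 of them called higher and 8 called lower. The counts include the markers above and exclude *gcm*, *sna* and *twi*, which set the groups. They also include genes, such as *ttk*, that passed the filter on low counts only through the gcm cells. The count fell to 63 without replicate 3, the library with the most gcm cells, and to 73 without replicate 2. The change itself differed between the mixed-species and the single-species libraries for 1 gene (0.0161%), *pgc* (edgeR adjusted p = 0.0436).

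*ttk* and *zfh1* were among the genes that rose. *ttk*, the gene of the repressor Tramtrack, which holds back neuronal genes downstream of Gcm in glia, stood at 23.1 CPM in the lowest library of gcm cells, 107 CPM at the median and 163 CPM in the highest, against 1.65, 4.50 and 5.44 CPM in mesoderm-gate cells. The log2 change was 4.50 (SE 0.277). *ttk* passed the filter on low counts only through the gcm cells, so its change is given as a description. *zfh1*, a zinc finger and homeodomain gene of the early mesoderm that is also used in blood cells, rose in the gcm cells of all 7 libraries, with a median of 366 CPM against 129 CPM (log2 change 1.01, SE 0.137, edgeR adjusted p = 2.24e-04), and here the groups overlapped.

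*btd*, *kn* and *vvl* were higher as well. *btd*, a head gap gene, had a lowest, median and highest level of 19.1, 26.5 and 77.6 CPM against 0.693, 2.80 and 8.33 CPM (log2 change 3.22, SE 0.329). *kn*, the gene of the Collier factor, which acts in the head and later in the larval blood organ, stood at 17.9, 38.4 and 57.3 CPM against 0.693, 4.00 and 10.5 CPM (log2 change 2.90, SE 0.390, edgeR adjusted p = 2.03e-04). Both were higher in gcm cells in every library, with no overlap. The POU domain factor gene *vvl* stood at 35.5 ± 13.4 CPM against 4.99 ± 1.18 CPM (SD, n = 7), and rose by 2.67 on the log2 scale (SE 0.225). *btd* and *vvl* would not have passed the filter on low counts without the gcm cells, so their changes are given as a description.

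The nuclear receptor genes *knrl* and *kni* of the knirps group and a noncoding RNA between them rose. *knrl* stood at 194, 453 and 773 CPM (lowest, median, highest) in gcm cells against 49.6, 66.7 and 96.7 CPM in mesoderm-gate cells (log2 change 2.53, SE 0.197, edgeR adjusted p = 2.60e-07). *kni* stood at 105, 179 and 253 CPM against 21.9, 31.2 and 40.7 CPM (log2 change 2.37, SE 0.176, edgeR adjusted p = 1.55e-07). The long noncoding RNA *CR44683*, at 18.6 ± 12.9 CPM against 1.87 ± 0.783 CPM (SD, n = 7), rose by 3.20 on the log2 scale (SE 0.398). *CR44683* passed the filter on low counts only through the gcm cells, so its change is given as a description. None of the 3 overlapped between groups. On arm 3L of BDGP6.54 all of them lie on the minus strand in the order *knrl* (20597141 to 20620659), *CR44683* (20626580 to 20628498) and *kni* (20692330 to 20695378).

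Other genes named by size of rise were *cv-d*, whose product is a lipoprotein of the crossvein pathway (log2 change 3.30), *shep*, which encodes an RNA-binding protein (2.73), and *CG11498* (3.14), *CG33509* (2.68), *CG16886* (2.62) and *CG11905* (2.55). Each was higher in 7 of 7 libraries with no overlap. The edgeR adjusted p was 9.06e-07 for *shep* and 3.59e-06 for *CG16886*. *cv-d*, *CG11498*, *CG33509* and *CG11905* passed the filter on low counts only through the gcm cells, so their changes are given as a description. *shep* had a mean of 245 ± 127 CPM in gcm cells and 33.6 ± 11.7 CPM in mesoderm-gate cells (SD, n = 7). *bnl*, the gene of the FGF ligand Branchless, was singled out after its values were seen, so it is given as a description. It stood at 84.3 ± 32.5 CPM against 19.2 ± 6.12 CPM (log2 change 2.03, SE 0.257). In all cells without *gcm*, *bnl* ran from 41.9 to 62.8 CPM over libraries, which overlapped the 44.2 to 127 CPM of gcm cells.

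The mesoderm genes *tin*, *Mef2* and *htl* were lower in gcm cells. *tin*, the homeobox gene of heart and visceral mesoderm, stood at 19.3, 35.0 and 51.9 CPM in gcm cells (lowest, median, highest) against 73.2, 92.5 and 103 CPM in mesoderm-gate cells (log2 change -1.54, SE 0.163, edgeR adjusted p = 1.16e-05). *Mef2*, the muscle differentiation factor gene, stood at 34.0, 44.0 and 70.0 CPM against 74.6, 98.6 and 149 CPM (log2 change -1.22, SE 0.118, edgeR adjusted p = 3.59e-06). Neither overlapped between groups. *htl*, the gene of the FGF receptor that spreads the mesoderm, was lower in all 7 libraries with overlap between groups, at 52.7 ± 15.7 against 81.6 ± 14.2 CPM (SD, n = 7, log2 change -0.64, SE 0.130, edgeR adjusted p = 0.0102). Without replicate 2 *htl* was no longer called (log2 change -0.62). It was also not called against anterior mesoderm-gate cells, those with at least 1 UMI of *btd*, *ems*, *oc* or *gt*. The same held for *htl* after thinning, with at least 10 *gcm* UMIs, without the deepest 5% of cells and in single-species libraries alone.

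The remaining genes named for a fall included *wntD*, which encodes a secreted inhibitor of the Toll-Dorsal pathway (log2 change -1.31), the gap gene *Kr* (-1.08), *Act87E*, a muscle actin gene (-1.16), *rst*, an adhesion gene used in myoblast fusion (-1.15), and *drm*, an odd-skipped family gene (-1.31). The long noncoding RNA *CR45361*, within which the annotation places *mir-1* on the same strand, fell by 1.25 on the log2 scale. *sprt* (-1.43), *fend* (-1.08), *CG3036* (-0.77), *CG14657* (-0.69), *Mes-4*, a histone methyltransferase gene (-0.76), and the cell cycle factor gene *E2f1* (-0.66) completed the rule's 15. Their edgeR adjusted p ran from 3.28e-05 for *sprt* to 0.0200 for *Mes-4*, and each was lower in 7 of 7 libraries. Without replicate 3 *rst* (-0.91) and *Kr* (-0.90) were no longer called, and neither was *Mes-4* without replicate 2 (-0.70), 3 (-0.73) or 4 (-0.72). Against anterior mesoderm-gate cells *Act87E*, *rst*, *CG3036* and *Mes-4* were not called.

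**Figure D3:**
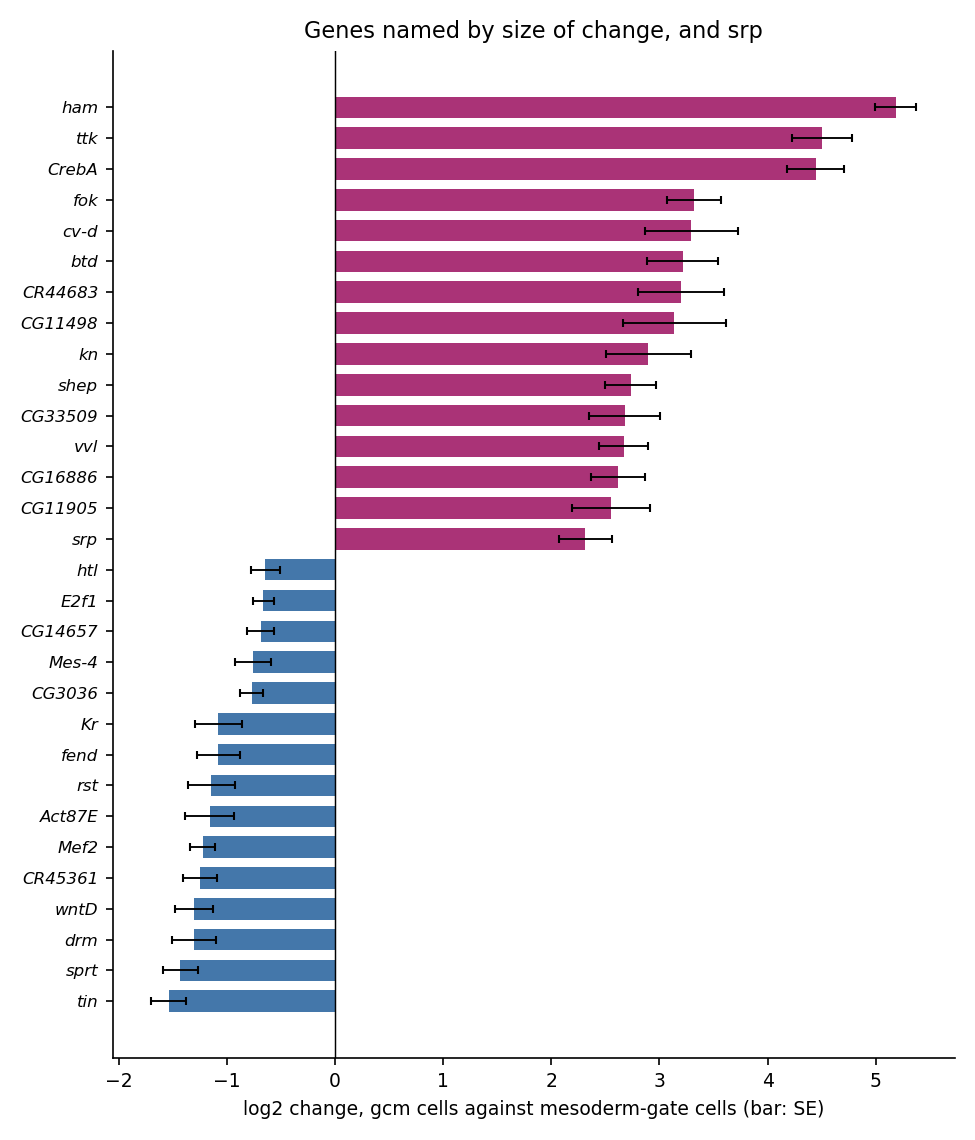
Bars give the log2 change from mesoderm-gate cells to gcm cells for genes named by size of change and for *srp*, and whiskers give the SE computed from each test over 7 libraries. Rises reach 5.18 for *ham* and falls reach -1.54 for *tin*.

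The gene lists are read against the 1.87% of all genes tested that were called. Of 16 blood cell genes, 6 were abundant enough to test. Apart from *srp*, whose change is a description as above, *zfh1* rose and 4 did not pass. The median log2 change of the 6, *srp* included, was 0.74, against -0.01 over all genes tested. Of 10 proposed Gcm targets, 5 could be tested, with a median of -0.05. None passed apart from *ttk*, whose change is a description as above. Of 18 head and anterior genes, 15 were tested and 13 did not pass, with a median of 0.05. *knrl* rose, and *btd* was also higher, as a description. *oc*, *tll*, *croc*, *hkb*, *ems* and *slp1* of that list had log2 changes from -0.46 to -0.24, none of them called. The other uncalled members were positive: *so* (1.24), *gt* (0.75), *Dfd* (0.59), *slp2* (0.44), *cnc* (0.06), *hb* (0.05) and *fj* (0.02). Of 18 trunk and posterior genes, 17 were tested, *kni* rose and *Kr*, *run*, *opa* and *odd* fell, with a median of -0.76.

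*run* and *opa*, both pair-rule genes, fell by 0.96 (SE 0.195, edgeR adjusted p = 0.0103) and 0.78 (SE 0.169, edgeR adjusted p = 0.0170) on the log2 scale, each lower in 6 of 7 libraries. *odd* fell by 0.58 (SE 0.129, edgeR adjusted p = 0.0214). Without replicate 2 or without replicate 3, none of *run*, *opa* and *odd* was called (log2 changes of -0.88 and -0.91, of -0.76 and -0.79, and of -0.53 and -0.52), nor *opa* without replicate 6 (-0.76) or *odd* without replicate 5 (-0.50). Against anterior mesoderm-gate cells *run* and *opa* were not called.

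The secretory pathway list, chosen because CrebA activates such genes elsewhere, was nearly flat in the gcm cells. Of its 31 tested members 1 passed, *Sec61beta*, a subunit of the translocation channel of the endoplasmic reticulum, which rose by 0.40 on the log2 scale (SE 0.0968, edgeR adjusted p = 0.0376) and was higher in 7 of 7 libraries. That call was lost without replicate 2, 3, 4, 5 or 6 (log2 changes of 0.40, 0.42, 0.43, 0.41 and 0.38), and also against anterior mesoderm-gate cells. The median of the list was 0.02. Of 14 mesoderm genes *zfh1* rose, *Mef2*, *tin*, *wntD* and *htl* fell, and 9 did not pass, with a median of -0.11. Of 8 endoderm genes tested *wntD* fell, and of 13 cell cycle genes *E2f1* fell, with medians of -0.26 and -0.04. With 1 call each, these are 12.5% and 7.69% of the genes tested in their list, against 1.87% over all genes.

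**Figure D4:**
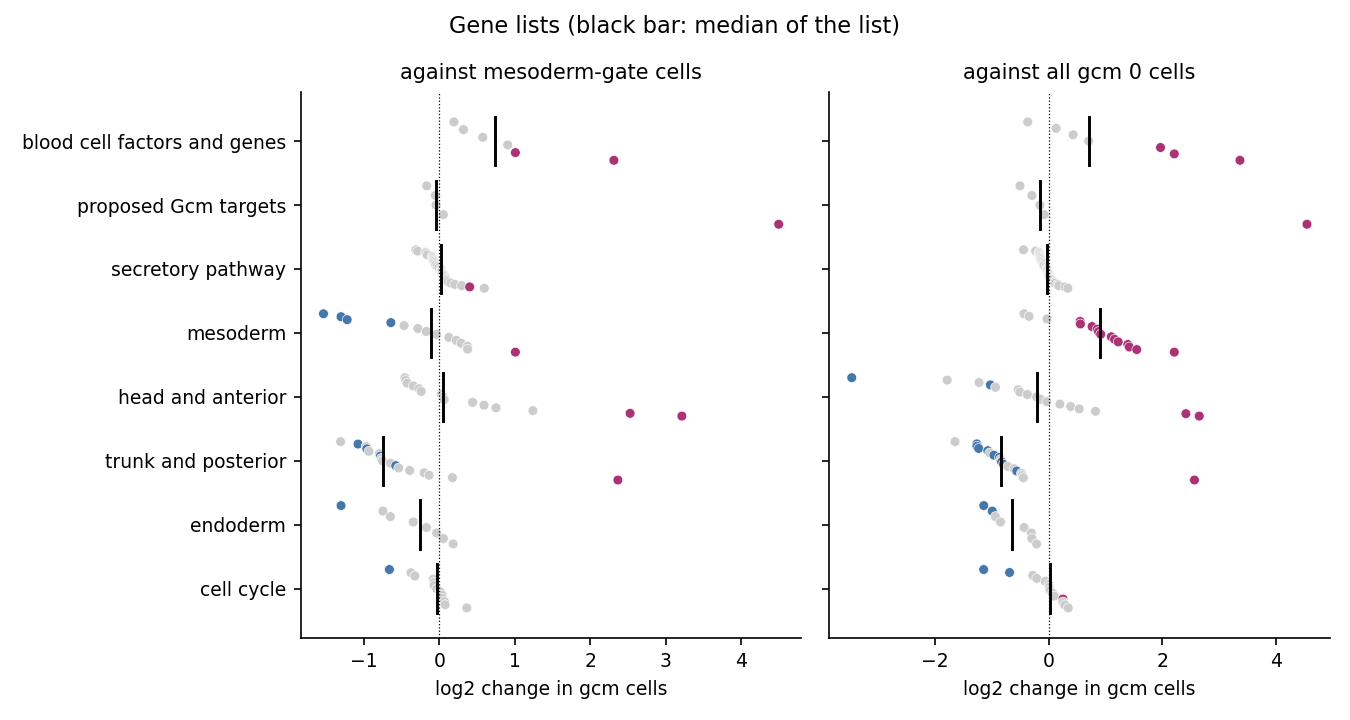
Each point is 1 tested gene of a list, placed by its log2 change in gcm cells against mesoderm-gate cells (left) and against all cells without *gcm* (right). Coloured points passed the test (purple higher, blue lower), grey points did not, and black bars are list medians. The secretory list is centred on 0 in both panels, and the mesoderm list moves from a median of -0.11 to 0.90.

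Most blood cell genes of later stages were at or near 0. The gcm cells held 0 UMIs of *lz*, which directs crystal cells, 0 of *NimC1* and 0 of *vkg*, 4 of the peroxidasin gene *Pxn* and 1 of *Hml*, which marks mature hemocytes. The 999 mesoderm-gate cells held 4, 2, 1, 18 and 7 UMIs of *lz*, *NimC1*, *vkg*, *Pxn* and *Hml*. These genes were rare in both sets, so their counts cannot set the gcm cells apart. A count of 0 in 108 cells allows a share of up to 2.78% of cells with a UMI. *gcm2* was rare but concentrated: the gcm cells held 9 UMIs in 7 cells, against 1 UMI in all 3672 cells without *gcm*. *Pvr*, the gene of the PDGF and VEGF receptor that hemocytes need to survive, held 20 UMIs in 12 gcm cells against 25 UMIs in all 3672. The glial gene *repo*, a Gcm target in the nervous system, had 1 UMI. The intact-embryo bulk library of *D. melanogaster*, a single sample, had 151 reads on *gcm* (22.8 CPM) and 1 read on *gcm2*. In bulk RNA, fewer expressing cells and less RNA per cell cannot be told apart.

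Compared with all cells without *gcm*, 425 of 7342 genes passed the same test (5.79%), 171 higher in gcm cells (2.33%) and 254 lower (3.46%). The split was 178 higher and 171 lower with DESeq2 and its own scaling, 110 and 353 after thinning, 198 and 448 without a filter on low counts, and 207 and 411 with at least 10 *gcm* UMIs. The median log2 change of all genes was -0.02 with TMM scaling and 0.11 when counts were scaled by library total alone. Without replicate 3 the count was 210. The comparison with all cells shares its gcm cells and part of its other cells with the one above.

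Most of the listed mesoderm genes rose against all cells, where 5.79% of all genes tested were called. Of 16, 13 were higher in gcm cells and none lower, with a median log2 change of 0.90. *CG4500*, a gene of the early mesoderm, stood at 318, 537 and 895 CPM in gcm cells (lowest, median, highest) against 116, 187 and 198 CPM, without overlap (log2 change 1.55, SE 0.139, edgeR adjusted p = 4.34e-07). *twi* rose by 0.88 (SE 0.113, edgeR adjusted p = 4.85e-05) and *sna* by 0.85 (SE 0.120, edgeR adjusted p = 1.15e-04). The 3 that did not pass were *tin* (log2 change -0.35), *wntD* (-0.44) and *Mef2* (-0.03). Thus *Mef2* in gcm cells was at 48.0 ± 14.0 CPM and in all cells without *gcm* at 44.1 ± 6.29 CPM (SD, n = 7). *htl* was called (log2 change 0.56) but not without replicate 2 (0.55), 3 (0.35), 4 (0.60) or 6 (0.54). *NetA* (0.56), *bgm* (1.27) and *Cyp310a1* (0.43) were not called without replicate 3, nor was *Cyp310a1* without replicate 2 (0.51).

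By size of change against all cells without *gcm*, *ham* (log2 change 5.40), *ttk* (4.54), *CrebA* (3.95) and *CR44683* (3.74) were among the leading rises. The edgeR adjusted p was 1.99e-10 for *ttk*. *CR44683* passed the filter on low counts only through the gcm cells here too, so its change is given as a description. The leading falls were *brk*, a repressor gene of the ventral ectoderm (log2 change -1.46, SE 0.217, edgeR adjusted p = 1.93e-04), *CG7191* (-1.45), *CG15236* (-1.43), *Rab23*, which encodes a small GTPase (-1.42), and the noncoding RNA *CR43617* (-1.33). *brk* had 0, 23.4 and 42.3 CPM in gcm cells (lowest, median, highest) and 45.4, 58.6 and 73.0 CPM in all cells without *gcm*, with no overlap. With 1 library left out, 3 of these were no longer called: *Rab23* was lost without replicate 3 (-1.12), *CR43617* without replicate 2 (-1.12), 4 (-1.24) or 6 (-1.06), and *CG7191* without replicate 1 (-1.51), 2 (-1.27), 3 (-1.09), 6 (-1.54) or 7 (-1.41).

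Trunk and posterior genes were compared with all cells too. Of 18 tested, *kni* was higher, 9 were lower and 8 did not pass, with a median log2 change of -0.84. The lower ones were the Hox genes *Ubx* (-1.27), *Antp* (-1.23) and *Abd-B* (-1.26), and *Kr* (-1.07), *run* (-0.96), *opa* (-0.83), *odd* (-0.56), *en* (-0.87) and *ftz* (-0.80). Without replicate 3 *Antp* (-0.996), *Abd-B* (-1.31), *odd* (-0.48), *en* (-0.90) and *ftz* (-0.62) were not called. *Abd-B* was also not called without replicate 2 (-0.99), 4 (-1.22) or 6 (-1.14), and *odd* not without replicate 2 (-0.52). The same held for *en* without replicate 2 (-0.79), 5 (-0.73) or 6 (-0.88), and for *ftz* without replicate 1 (-0.85), 2 (-0.88) or 5 (-0.72). Of 17 head genes *knrl* and *btd* rose, and *eya* and *oc* fell. *eya*, an eye and head mesoderm gene, had 2 UMIs in the gcm cells and 328 in all cells without *gcm*. *oc* (log2 change -1.03) was not called without replicate 3 (-0.85).

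None of the 32 secretory genes passed the edgeR test against all cells, and their median log2 change was -0.03. Of 7 blood cell genes tested, *zfh1* rose, 4 did not pass, and *srp* and *Pvr* are given as a description. The median of the 7 was 0.70. *zfh1* rose by 2.21 on the log2 scale (SE 0.154, edgeR adjusted p = 9.15e-09). *Pvr* was rare and passed the filter on low counts only through the gcm cells, at 3.86 ± 3.06 against 0.369 ± 0.116 CPM (SD, n = 7), higher in 5 of 7 libraries and lower in 2. Of 8 endoderm genes the FGF ligand genes *ths* (-1.14) and *pyr* (-0.99) fell, both lost without replicate 3 (-1.06 and -1.02) or 6 (-0.96 and -0.81), and *pyr* also without replicate 2 (-0.89). Of 14 cell cycle genes *CycA* rose (0.25), and *E2f1* (-0.69) and *dap* (-1.15) fell. *CycA* was not called without replicate 1, 2, 3, 6 or 7 (0.22 to 0.26) and *dap* not without replicate 3 (-0.91) or 6 (-1.08).

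Cells with more *gcm* UMIs also had more of the other markers. The mean *ham* level over libraries was 3.90 CPM in mesoderm-gate cells, 16.5 CPM in cells with 1 *gcm* UMI, 41.4 CPM with 2 to 4, 227 CPM with 5 to 9 and 289 CPM with 10 or more. *CrebA* went through 13.2, 42.3, 93.5, 418 and 576 CPM over the same classes, and *srp* through 48.8, 61.3, 116, 266 and 463 CPM. *tin* ran the other way, through 90.8, 43.8, 53.1, 28.7 and 10.6 CPM, and *Kr* through 104, 69.7, 84.6, 17.4 and 15.1 CPM. The steps at 2 to 4 interrupted the descent of both. Median depth was 16557, 16467, 19589, 18446.5 and 33517.5 UMIs, so the class with 10 or more was also the deepest, and the part of depth was not tested. The classes rest on 7, 7, 6, 6 and 5 libraries with at least 3 cells. As the classes are cut by *gcm*, no test was made.

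**Figure D5:**
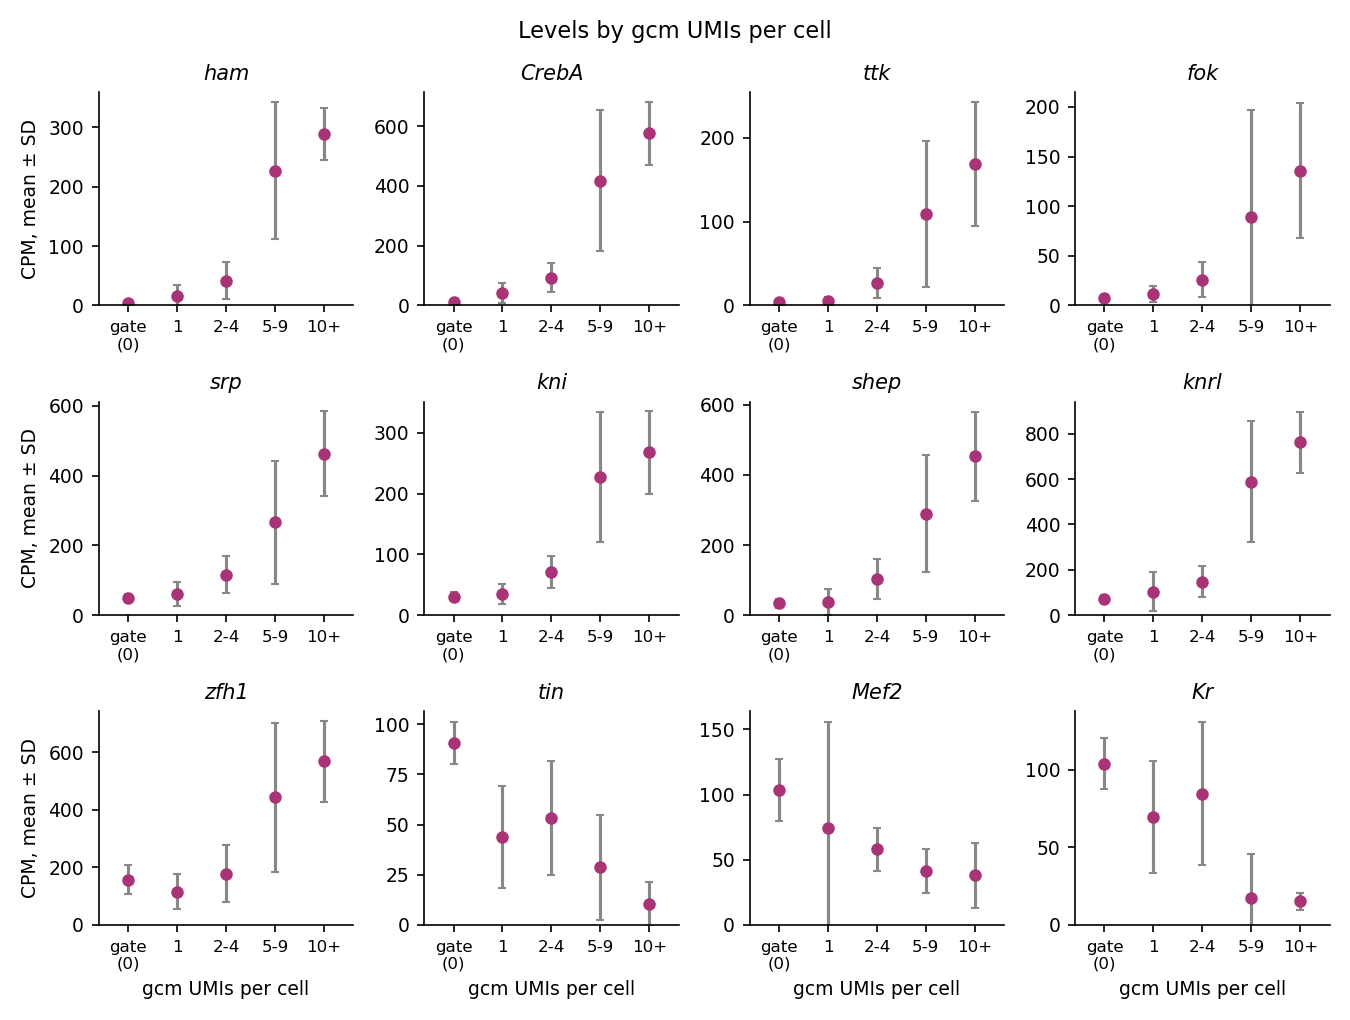
Points are the mean level over libraries (CPM) and bars the SD, for mesoderm-gate cells with 0 *gcm* UMIs and for cells with 1, 2 to 4, 5 to 9 and 10 or more; the axis starts at 0, where some bars are cut off. *ham*, *CrebA* and *knrl* step up between 2 to 4 and 5 to 9, and *Kr* steps down there.

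At the edge of the rule the shares of cells with *ham*, with *srp* and with *CrebA* stepped up between 1 and 2 *gcm* UMIs and not again at 3. *fok* rose less at 2 and was back near its first share at 3. The 100 cells with exactly 1 *gcm* UMI had *ham* in 12.0% and *CrebA* in 28.0%. The 24 cells with exactly 2 had *ham* in 58.3% and *CrebA* in 58.3%, and of the 12 with exactly 3, 6 had *ham* and 7 had *CrebA*. The summed *ham* level was 12.4 CPM with 1 *gcm* UMI, 22.9 CPM with 2 and 60.7 CPM with 3, and the summed *srp* level 60.0, 100 and 182 CPM. Median depth was 16467, 21516 and 20327 UMIs, and its part was not tested.

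The authors also deposited a pooled table of 1297 cells in which every barcode matched exactly 1 of the 7 libraries and carried a number from 1 to 11 behind the barcode, whose meaning is not given in the sources used here. The number 9 was borne by 48 cells drawn from all 7 libraries. Of these, 45 had at least 2 *gcm* UMIs and 46 had both *sna* and *twi*. In the other 1249 pooled cells, 8 had at least 2 *gcm* UMIs, under the numbers 2, 3, 4 and 8. The number 9 cells had a summed *ham* level of 357 CPM, a *CrebA* level of 692 CPM and an *srp* level of 508 CPM. Number 2 also had *sna* and *twi* together in 37 of its 49 cells, with *srp* at 273 CPM, *knrl* at 488 CPM and *kni* at 234 CPM, against 899 CPM for *knrl* and 347 CPM for *kni* in number 9. Its *ham* level was 16.6 CPM, its *CrebA* level 7.48 CPM and its *zfh1* level 94.7 CPM, against 762 CPM for *zfh1* in number 9. Number 6 had *srp* at 418 CPM and *CrebA* at 183 CPM, but no *ham* UMI and both *sna* and *twi* in only 2 of its 52 cells. Number 7 had *srp* at 215 CPM and *ham* at 40.2 CPM. *zfh1* stood at 257 CPM in number 4 and 137 CPM in number 8. Hence *ham*, *srp*, *CrebA*, *knrl*, *kni* and *zfh1* were also present elsewhere in the pooled cells, whereas *gcm* was at most 5.82 CPM outside number 9.

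Of the 108 gcm cells, 53 were in the pooled table with unchanged *gcm* counts and 55 were not. The 45 under number 9 had a median of 10 *gcm* UMIs and a summed *ham* level of 320 CPM. The 8 under other numbers had a median of 2 *gcm* UMIs, with *ham* at 5.28 CPM and *CrebA* at 7.92 CPM. The 55 that were not pooled had a median of 4 *gcm* UMIs, *ham* at 98.6 CPM and *CrebA* at 222 CPM, with a median depth of 12283 UMIs against 26118 for number 9.

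Markers of other cell types were present in the gcm cells at levels whose ranges overlapped those of the mesoderm-gate cells. The summed level of 7 mesoderm markers ran from 2092 to 4078 CPM over libraries in gcm cells and from 2469 to 3401 CPM in mesoderm-gate cells. For 10 dorsal ectoderm and amnioserosa markers it ran from 51.8 to 706 CPM against 106 to 294 CPM, and for 7 ventral neurogenic ectoderm markers from 226 to 974 CPM against 438 to 698 CPM. For 6 pole cell markers it ran from 40.7 to 265 CPM against 56.6 to 296 CPM. No marker of these lists was at 0 in the gcm cells of all libraries. The part of these transcripts in the differences above was not tested.

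Shallower cells gave a smaller set of the same measures in barcodes that the rule had not used. Among cells with at least 1000 but fewer than 5000 UMIs, 60 had at least 1 *gcm* UMI and 203 had none of it but both *sna* and *twi*. Only 12 of those 60 had both *sna* and *twi*, so cells mostly without the gate were compared with cells that all passed it, and the part of the gate in the differences was not tested. In 928 genes tested 11 passed the edgeR test (1.19%), all higher in the cells with *gcm*. *CrebA* rose by 1.93 on the log2 scale (SE 0.365), *bnl* by 2.66 (SE 0.584) and *knrl* by 1.43 (SE 0.341). *CrebA*, *bnl* and *knrl* would not have passed the filter on low counts here without the cells with *gcm*, so their changes are given as a description. Of the 116 genes called in the deeper cells 35 could be tested here and 4 were called, *CrebA*, *bnl* and *knrl* in the same direction and *mt:lrRNA* in the opposite one. *ham* had 17 UMIs against 11 (98.1 and 17.8 CPM), higher in 6 of 7 libraries, and *htl* had 2 against 52 (11.5 and 83.9 CPM), lower in 7 of 7. *srp* did not pass (log2 change 0.98, edgeR adjusted p = 0.368). Nor did *zfh1* (log2 change 0.31, edgeR adjusted p = 0.830), which was higher in 3 libraries and lower in 4. Of the 35 genes tested here, 29 had the same sign as in the deeper cells.

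The other calls in shallow cells were *CG13427*, *hth*, *ed*, *Lac*, *Atx-1* and the mitochondrial transcripts *mt:lrRNA*, *mt:ATPase6* and *mt:ND1*. *Atx-1* would likewise not have passed the filter on low counts without the cells with *gcm*, so it is given as a description. *mt:lrRNA* was lower in the deeper gcm cells (log2 change -0.42) and higher in the shallow ones (0.26). The set was fragile: without replicate 3 no gene passed the edgeR test, with 85 at an unadjusted p below 0.05. Without replicates 1, 2, 4, 5, 6 and 7 in turn, 3, 4, 4, 18, 4 and 1 genes passed.

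Some symbols share their locus. In BDGP6.54 *gcm* overlaps *CG31709*, *ham* overlaps *CR43804* and *srp* overlaps *CR44133* on the same strand, and *fok* overlaps *neb* on the other, so UMIs assigned to these genes could in part belong to a neighbour.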

How the data were processed

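The 7 Drop-seq tables deposited by the authors give unscaled UMI counts for each gene in each barcode, with 8855169 to 21429520 UMIs per library, and the deposited pooled table holds raw UMI counts of cells the authors chose. The deposited bulk table of *D. melanogaster* holds raw read counts per gene (6608592 on genes; 56.0% of the counted reads were on no single gene and were left out). The *D. virilis* bulk table was not used here. The submitters' processing notes name STAR, HTSeq and BDGP6, whose roles and versions are not given in the sources used here.

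Counts of *D. melanogaster* genes were summed per library and cell set, for libraries with at least 3 cells in each set, and expressed as CPM over those sums. The tests used edgeR 4.0.16 under R 4.3.3 (TMM scaling, the filterByExpr filter, two-sided quasi-likelihood test with the library as a block because both cell sets come from the same library, Benjamini-Hochberg adjustment over all genes tested, threshold 0.05). The procedure was tested on simulated sums with 4-fold changes in genes of ample counts, where libraries differed only in their totals. That simulation does not cover changes in rare genes or sums dominated by a few deep barcodes. The SE of each log2 change was computed from the edgeR test, as the absolute log2 change divided by the square root of the F statistic. DESeq2 1.42.0 was the alternative test. Tables were made with Python 3.11.15, numpy 2.4.6, pandas 2.3.3 and scipy 1.17.1, and figures with matplotlib 3.10.9. Apart from the bar on mixed-species barcodes, doublets were not removed and no doublet caller was run. Thinning drew UMIs at random without replacement with a fixed seed. A count of 0 was taken to allow up to 3 counts, and intervals are exact Clopper-Pearson at 95%.

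Named genes were the markers *gcm*, *ham*, *srp*, *CrebA* and *fok*, up to 15 genes per direction against mesoderm-gate cells and up to 5 against all cells without *gcm*, ranked by log2 change among called genes with 1 direction in every library and at least 10 CPM in the higher set, and list members where detected. Of the genes this rule named, 1 is not reported here. The members, markers and lists were chosen with earlier results of these data known. Alternatives covered scaling, test, filter, block, depth, purity, the *gcm* limit, the comparison cells, cell minimum, kind of library and each library left out. Gene positions were taken from the BDGP6.54 annotation by symbol or synonym.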

Additional observations from a re-analysis of the deposited data

Results flagged for a closer look

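The change from mesoderm-gate cells to gcm cells was tested for a difference between the 2 mixed-species and the 5 single-species libraries, an interaction chosen after seeing the data. Of 6211 genes 1 passed (0.0161%), *pgc*, a maternal transcript of the pole cells, whose log2 change was higher by 3.83 (SE 0.584, edgeR adjusted p = 0.0436) in the mixed-species libraries. The *pgc* level of the gcm cells was 124 and 184 CPM in the mixed-species libraries and 10.6, 52.9, 192, 68.8 and 0 CPM in replicates 3 to 7, so these overlapped. The level of the mesoderm-gate cells was 29.8 and 19.0 CPM in the mixed-species libraries and 62.9, 83.8, 213, 141 and 104 CPM in replicates 3 to 7, without overlap. Single cells held much of it: in the gcm cells 1 cell had 92 of 94 *pgc* UMIs in replicate 2, 27 of 39 in replicate 1 and 64 of 100 in replicate 5. The part of single cells in this difference was not tested. No library stood out in the 77 groups of 7 values that were examined for outliers.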

How the results depend on the processing

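With gcm cells against mesoderm-gate cells, 116 genes were called. The count was 327 without a filter on low counts, 63 with no replicate block, 176 with at least 1 *gcm* UMI, 335 with at least 10 (5 libraries, added after seeing the data), 275 without the deepest 5% of cells, and 63 (without replicate 3) to 136 with a library left out. Thinning gave 148. Against all cells without *gcm*, 425 were called, and 646 without a filter, 253 with no replicate block, 271 at 10000 UMIs per cell, 639 without the deepest 5% and 210 (without replicate 3) to 457 with a library left out. The library block pairs sets of the same library, which share embryos and preparation. In shallow cells 11 were called, and 7 with DESeq2, 81 without a filter (4 higher, 77 lower), 5 at 95% purity and 0 to 18 with a library left out. There, edgeR called 0 with no replicate block, with thinned counts, with anterior comparison cells and in single-species libraries alone (53, 33, 39 and 67 at an unadjusted p below 0.05). Requiring *sna* and *twi* in shallow gcm cells left 12 cells and no fit. The difference between kinds of library (1 gene) became 10 without a filter, 0 (edgeR) with no replicate block, at 10000 UMIs, with at least 1 or 3 *gcm* UMIs and with anterior comparison cells (210, 244, 323, 260 and 249 at an unadjusted p below 0.05), and 0 to 1 with a library left out. The share of gcm cells (2.79%) was 3.81% at 10000 UMIs, 5.64% with at least 1 *gcm* UMI, 0.795% with at least 10 and 1.27% after thinning. Its difference of 0.141 points between kinds of library turned to -0.156 at 3000 UMIs, -2.17 with at least 1 *gcm* UMI, -0.356 with at least 10, and ran from -0.528 (without replicate 2) to 0.809 with a library left out, with -0.133 without replicate 7. The cause of these moves was not tested. The libraries, cells or genes that enter also change with the library left out, the depth and the filter. Without a filter, 14064 genes were tested against mesoderm-gate cells, more than the 6211 of the main setting. Of the called genes of the naming rule and the lists, none reversed under the alternatives run: 858 values against mesoderm-gate cells kept their call and 51 lost it, and against all cells 901 kept it and 107 lost it. Among the genes lost with no replicate block were *htl*, *Mes-4*, *opa*, *odd* and *Sec61beta* against mesoderm-gate cells. With the 8 to 29 gcm cells of a library, genes of a few CPM were at the limit of detection.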
